A study of Mus musculus with 2 samples.

Results

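The 40 genes described here encode enzymes and helpers of fatty acid oxidation and ketone body metabolism. They were listed by name from knowledge of the pathway, with no measured value in the rule, although earlier results of these data were known. All 40 were found among the 35275 genes of the count table by Ensembl identifier and GENCODE M21 symbol. RNAseq compared untreated AML12 cells, the control, with cells of the same line driven to senescence by hydrogen peroxide. AML12 is a non-transformed hepatocyte line of a CD-1 mouse, labelled as male liver from an animal of 3 months, which carries a transgene for human transforming growth factor alpha. Both groups were therefore 1 line and shared that transgene, and both were kept in DMEM:F12 with 10% FBS, insulin, transferrin, selenium and 100 nM dexamethasone. The senescent cells were exposed to H2O2 in serum-free medium for 1 h daily over 6 days, first at 1 mM and then at 750 μM for 5 days, and recovered in complete medium for 23 h after each exposure. RNA of 3 samples was pooled for 1 library per condition, so each value below compares 2 libraries, no replicate error exists and no p-value was computed.

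The control library held 28021941 counted reads and the senescent library 25738075. All 40 genes had at least 100 reads over both libraries, from 236 for Bdh1 to 22970 for Acsl5, so none was lost to the minimum of 10 reads. Of 9 hepatocyte markers with at least 10 reads, 4 had a log2 ratio of senescent over control below 0 and 5 above. Alb, which encodes albumin, had 32076 control and 2917 senescent reads and Apoa1 2026 and 197, whereas the keratin genes Krt8 (119403 and 144783 reads) and Krt18 (40512 and 60941) and the low Cps1 (19 and 55) went the other way. Hnf4a, a transcription factor of hepatocyte identity, had 8187 and 7705 reads, and Apoa2 (0 and 5) and Trf (26 and 17) were near 0. Apart from Epcam, with 0 and 1 reads, the biliary markers were also abundant and went from -1.43 for Krt7 to 0.54 for Sox9. The 5 biliary genes summed to 1897 CPM on TMM-scaled counts in control and 1421 in senescent cells. Markers of other liver cells were low. The 5 fibroblast genes summed to 0.722 CPM in control and 0.242 in senescent cells, the 4 endothelial genes to 0.172 and 0.484, and the 5 macrophage genes to 2.61 and 6.29. Of the macrophage genes, Adgre1 and Clec4f were at 0 in both. Csf1r (15 and 40 reads) and Ptprc (27 and 76) were higher in senescent cells, at log2 ratios of 1.58 and 1.68, and Cd68 had 34 and 40 reads. In bulk RNA, fewer cells with a transcript and less transcript per cell cannot be told apart.

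Fatty acids are first joined to coenzyme A by acyl-CoA synthetases. Long chains enter mitochondria as carnitine esters, and each turn of β-oxidation there removes an acetyl group through dehydrogenation, hydration, a second dehydrogenation and thiolysis, with electrons passed to the respiratory chain. Peroxisomes shorten very long and branched chains and the side chains of bile acid precursors, with oxidases that make hydrogen peroxide in place of the first dehydrogenase. In liver, surplus acetyl-CoA is turned into ketone bodies, and the nuclear receptor PPARα switches on many genes of both organelles during fasting.

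Expression of this pathway was lower in senescent AML12 cells, with a modest change in most genes and a large one in a few. The 40 genes took 129306 reads, 0.461% of the control library, and 77529 reads, 0.301% of the senescent library. Their median log2 ratio of senescent over control was -0.66, with counts scaled by the TMM method and a prior count of 1, beside -0.02 over all 14383 genes that had at least 10 reads. Ratios ran from -2.94 for Acox2 to 0.37 for Acaa1b, and 35 of the 40 were below 0, beside 7345 of the 14383 genes. The 95% interval of a ratio, computed by the Clopper-Pearson method on the fraction of its reads that were senescent, lay wholly below 0 for 33 of the 40 genes. That was so for 34.6% of all genes with at least 10 reads and for 38.2% of those with at least 100. It lay wholly above 0 for 4 of the 40, beside 34.0% of all genes. Below, a gene's log2 ratio and this interval follow its reads in parentheses. The intervals cover counting error only, since 1 library per condition gives no replicate variation. They also treat reads as independent molecules, which PCR copies are not, so they may be too narrow even for counting error.

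**Figure D1:**
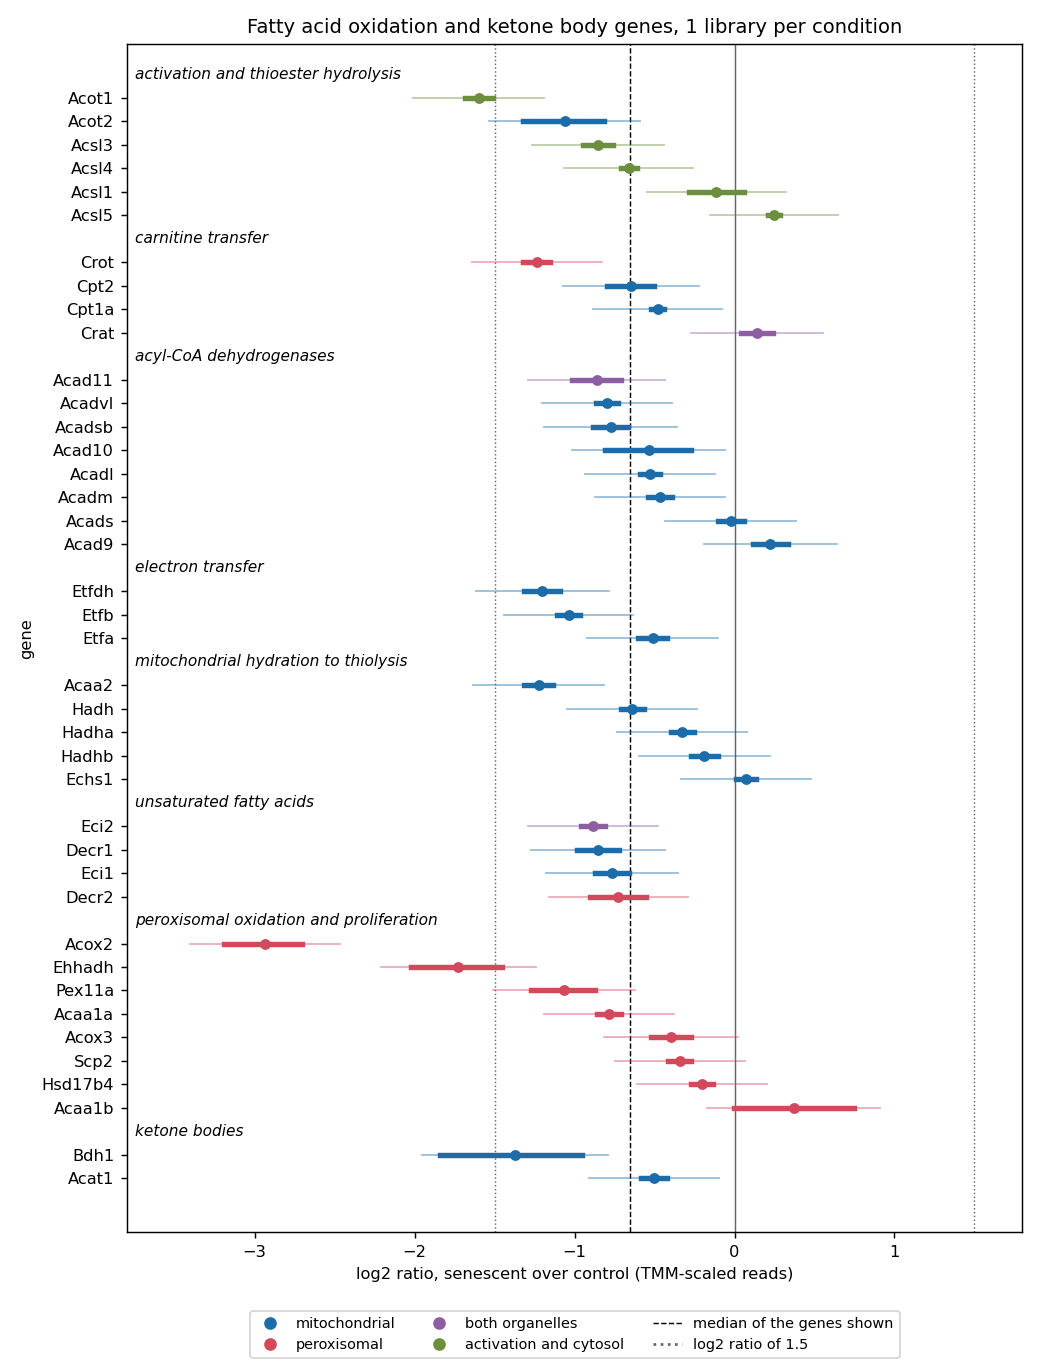
Log2 ratio of senescent over control for each of the 40 genes, grouped by role and coloured by compartment. Points are the ratios from 1 library per condition, thick bars the 95% counting intervals and thin bars the intervals widened for an assumed coefficient of variation of 0.1; most points lie between -1.5 and 0, and Acox2 lies far to the left at -2.94.

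A gene was called when its log2 ratio passed 1.5 in either direction, the threshold used in the study, with an interval that left out 0. By this rule 3 of the 40 genes fell and 0 rose, beside 5.60% of all genes lower and 2.71% higher, or 3.50% lower once a minimum of 100 reads was set. Called genes were thus 7.5% of the 40, near the background. At a log2 ratio of 1, a 2-fold change, 10 of the 40 were lower and 0 higher. The lower share was 25% of the 40 genes, beside 9.98% of all genes and 7.50% of those with at least 100 reads, and the higher share over all genes was 5.09%. If replicate cultures varied with a coefficient of variation of 0.1, an assumed value, 28 of the 40 intervals would lie below 0 and 0 above, beside 21.4% and 17.4% of all genes. At 0.4 there would be 2 below 0, those of Acox2 and Ehhadh, and 0 above, beside 3.86% and 1.61% of all genes, so the count below 0 was then near the background.

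The 3 genes that fell act outside the mitochondrial core of the pathway. Acox2, the peroxisomal oxidase of branched chains and bile acid intermediates, had the largest change. The gene (ENSMUSG00000021751, chromosome 14 from 8225511 to 8259353 of GRCm38, the build that the submitters' processing notes name as mm10) went from 1380 to 153 reads. It had a ratio of -2.94 on the log2 scale (95% interval -3.19 to -2.70), a 7.65-fold drop, and its level per length went from 12.8 to 1.67 RPKM, computed on merged exons and TMM-scaled counts. Ehhadh encodes the peroxisomal bifunctional enzyme that carries out the hydratase and the second dehydrogenase step on straight chains, and is a classical PPARα target. It lies on chromosome 16 from 21761287 to 21787807 (ENSMUSG00000022853) and fell from 515 to 132 reads (-1.73, interval -2.02 to -1.46). Acot1 encodes a cytosolic thioesterase that frees fatty acids from their coenzyme A esters. It fell from 4775 to 1344 reads (ENSMUSG00000072949, chromosome 12 from 84009490 to 84018371), at -1.60 on the log2 scale (interval -1.69 to -1.51). The end of its interval nearer to 0 lay just past the threshold.

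Promoter sequence could be set beside these ratios for 34 of the 40 genes, which matched 37 entries of RefSeq on GRCm38.p6, each with 250 bases before and 50 after a transcription start. PPARα binds with RXR to a pair of AGGTCA hexamers set 1 base apart, AGGTCANAGGTCA, called a DR1 element. On both strands and without mismatch, 0 of the 37 windows held it, as did 13 of the 32851 promoters in the table (0.0396%). The single hexamer AGGTCA occurred in 5 of the 37 windows (13.5%), those of Acadm, Acadvl, Cpt1a, Echs1 and Scp2, and in 16.3% of all promoters. A DR1 element always contains it. The CCAAT box (CCAAT) was found in 17 of the 37 windows, or 45.9%, beside 37.4% of all promoters, and the GC box (GGGCGG) in 26, or 70.3%, beside 35.7%. These are matches of letters in short windows and say nothing of binding.

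The stretches before the starts of 4 single genes are shown, together with the one that Hadha and Hadhb share, trimmed to bases that GENCODE M21 assigns to no exon. Capitals mark the 3 short motifs above, the hexamer, the CCAAT box and the GC box, on either strand. Ehhadh and Acot1 are shown as called genes, Acot2 as the close paralog of Acot1, and Cpt1a as the entry enzyme with an AGGTCA. The window of Acox2 lay within annotated exons and is not printed. Each sequence is on the strand of its gene, and the shared one on the plus strand.
Ehhadh, chr16:21787835-21788084, minus strand: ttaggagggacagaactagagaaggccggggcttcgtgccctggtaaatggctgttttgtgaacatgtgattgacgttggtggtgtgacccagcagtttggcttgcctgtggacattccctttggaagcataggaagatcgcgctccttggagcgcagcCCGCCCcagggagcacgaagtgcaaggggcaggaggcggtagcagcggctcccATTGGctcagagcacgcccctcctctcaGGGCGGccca
Acot1, chr12:84009252-84009489, plus strand: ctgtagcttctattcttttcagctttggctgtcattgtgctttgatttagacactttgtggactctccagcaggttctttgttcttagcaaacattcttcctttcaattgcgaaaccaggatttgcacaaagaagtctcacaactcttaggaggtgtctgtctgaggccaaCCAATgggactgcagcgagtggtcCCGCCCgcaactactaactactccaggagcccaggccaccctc
Acot2, chr12:83987611-83987860, plus strand: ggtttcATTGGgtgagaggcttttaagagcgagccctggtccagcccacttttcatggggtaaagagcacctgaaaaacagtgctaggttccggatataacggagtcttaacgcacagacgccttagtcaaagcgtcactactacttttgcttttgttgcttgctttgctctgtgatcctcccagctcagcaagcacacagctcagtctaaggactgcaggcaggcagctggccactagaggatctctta
Cpt1a, chr19:3323051-3323284, plus strand: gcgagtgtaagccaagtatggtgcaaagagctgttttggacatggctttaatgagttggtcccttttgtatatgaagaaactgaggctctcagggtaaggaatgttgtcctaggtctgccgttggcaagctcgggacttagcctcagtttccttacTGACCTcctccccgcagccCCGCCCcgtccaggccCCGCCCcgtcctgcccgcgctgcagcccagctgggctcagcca
Hadha and Hadhb, chr5:30155163-30155230: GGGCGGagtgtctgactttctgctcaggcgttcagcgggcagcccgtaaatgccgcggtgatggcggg

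Among the genes of activation and thioester hydrolysis, the 4 acyl-CoA synthetases did not move together. Acsl5, which feeds fatty acids into both oxidation and lipid synthesis, had 11417 control and 11553 senescent reads (0.25, interval 0.21 to 0.28). Acsl4, which prefers arachidonic acid, had 8485 and 4577 reads (-0.66, interval -0.71 to -0.61), and Acsl3, a synthetase of the endoplasmic reticulum and lipid droplets, had 2789 and 1316 (-0.85, interval -0.95 to -0.76). Of the Acsl3 exon bases, 5.6% are shared with Utp14b on the same strand, which had 389 and 233 reads, and 8.31% of those of Acsl5 lie opposite Zdhhc6, which had 3452 and 3642. Acsl1, the main synthetase of liver tissue, had a low level in both libraries, 2.09 and 1.93 RPKM, and its interval of -0.29 to 0.06 held 0. Of the summed level per length of these 4 genes, Acsl5 made up 50.8% before and 66.5% after peroxide, whereas Acsl4 made up 34.0% and 23.7%.

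Acot2 is the mitochondrial counterpart of Acot1, and the pair is nearly identical. The longest coding transcripts matched at 93.8% of 1337 aligned bases, with an identical run of 273 bases, so reads may have been assigned to the wrong copy and both counts are uncertain. Acot2 had 447 control and 182 senescent reads (-1.06, interval -1.32 to -0.81), past 1 but not 1.5. The stretches printed above for these genes were unlike each other, with a best local alignment of 20 bases.

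The ratios of the carnitine transferases were unequal. Cpt1a encodes the carnitine palmitoyltransferase of the outer mitochondrial membrane, the controlled step of entry, and had the most control reads of the 40 genes. It had 13045 control and 7971 senescent reads (-0.48, interval -0.52 to -0.44). Cpt2, which returns acyl groups to coenzyme A inside the organelle, had 1071 and 582 reads (-0.65, interval -0.80 to -0.50). Crot, which prepares shortened chains for export from peroxisomes, had 4337 and 1570 reads (-1.24, interval -1.32 to -1.15), more than 2-fold lower. Crat, the acetyltransferase found in both organelles, had nearly equal counts of 1644 and 1545 (0.14, interval 0.04 to 0.24). By level, the Crot to Crat ratio was 2.61 in control and 1.00 in senescent cells.

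Acyl-CoA dehydrogenases carry out the first step of each mitochondrial cycle and differ in the chain they accept. The 8 genes of this family listed here are not all limited to that step. None passed a log2 ratio of 1, and their median was -0.53. Acadvl, for very long chains, had 5311 control and 2606 senescent reads (-0.80, interval -0.87 to -0.73), although 42.9% of its exon bases lie opposite exons of Dvl2, which had 1232 and 1022 reads. Acadl, for long chains, had 5996 and 3546 reads (-0.53), and Acadm, for medium chains, had 3598 and 2220 (-0.47, interval -0.54 to -0.39). Acads, for short chains, had 2699 and 2262 reads, and its interval of -0.11 to 0.06 held 0. Across these 4 genes the ratio was nearer to 0 for shorter chains, although the intervals of Acadl (-0.59 to -0.47) and Acadm overlapped. At an assumed coefficient of variation of 0.1, even those of Acadvl (-1.20 to -0.39) and Acads (-0.43 to 0.38) overlapped. A dependence on chain length was not tested. Acadsb, for short branched chains, had 2089 and 1041 reads (-0.77). Acad11, placed in both organelles, had 1112 and 521 reads (-0.86), and Acad10 had 317 and 186 (-0.54). Acad9 takes part in the assembly of respiratory complex I, and it alone of the 8 had an interval above 0, with 1407 and 1402 reads (0.22, interval 0.12 to 0.33).

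Electrons from these dehydrogenases pass to the electron transfer flavoprotein, made of the Etfa and Etfb products, and from there to ubiquinone through the Etfdh product. All 3 genes were lower, by unequal amounts. Etfdh had 2437 control and 903 senescent reads (-1.20, interval -1.31 to -1.09) and Etfb had 5496 and 2282 (-1.04, interval -1.11 to -0.97), so both were lower by more than 2-fold. Etfa differed less, at 2748 and 1644 reads (-0.51, interval -0.60 to -0.42). Of the 40 genes, Etfb had the highest control level per length, 162 RPKM, and reached 79.0 in senescent cells, where Acsl5 with 95.8 was above it. By level, the Etfb to Etfa ratio was 3.15 in control and 2.19 in senescent cells. These are RNA levels per length and do not measure the amounts of the protein subunits.

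In the later steps of the mitochondrial cycle Acaa2 stood apart. Acaa2, the thiolase for medium chains, had 3542 control and 1292 senescent reads (-1.22, interval -1.32 to -1.13). Hadh, the short-chain hydroxyacyl-CoA dehydrogenase, had 4316 and 2364 reads (-0.64, interval -0.71 to -0.57). Hadha and Hadhb encode the α and β subunits of the trifunctional protein for long chains, the latter with the long-chain thiolase, and were nearer 0, with 4106 and 2793 reads (-0.33) and 2654 and 1985 reads (-0.19). They lie head to head on chromosome 5 with 272 bases between their RefSeq starts, and the GC box shown above lies between them. Their counts moved almost alike, and the Hadhb to Hadha ratio changed by 0.14 on the log2 scale (0.03 to 0.25). Echs1, the short-chain hydratase, had 4259 and 3819 reads (0.07, interval 0.01 to 0.14), a sign that turned negative with scaling by total count.

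The 4 auxiliary enzymes for unsaturated chains had the narrowest range of all the roles, from -0.88 for Eci2 to -0.73 for Decr2. Eci1 and Eci2 encode isomerases that move a double bond, and Decr1 and Decr2 encode the mitochondrial and the peroxisomal dienoyl-CoA reductase. Eci2 had 4338 control and 2005 senescent reads, and Eci1 had 2229 and 1117 (-0.77). Decr1 had 1477 and 697 reads (-0.85) and Decr2 had 775 and 399. The change of the Decr2 to Decr1 ratio, 0.13, had an interval of -0.09 to 0.34, and that of Eci2 to Eci1, -0.12, one of -0.25 to 0.01, so no difference within either pair was detectable at this depth.

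The peroxisomal enzymes had the widest spread. Beside Acox2 and Ehhadh, which fell, Acox3 encodes another oxidase of branched chains and had 1314 control and 852 senescent reads (-0.40, interval -0.52 to -0.27). Hsd17b4 encodes the second bifunctional enzyme, which handles branched chains and bile acid intermediates. It had 3911 and 2900 reads (-0.20, interval -0.27 to -0.13), against -1.73 for Ehhadh. The Ehhadh to Hsd17b4 ratio by level went from 0.150 to 0.0520, and that of Acox2 to Acox3 from 3.27 to 0.559. The latter rests on merged exon lengths of 3703 bases for Acox2 and 11521 for Acox3. Their control reads were nearly equal, at 1380 and 1314. Scp2, the thiolase and sterol carrier that completes branched chain and bile acid oxidation, had 3888 and 2613 reads (-0.34). Pex11a, whose product promotes the division of peroxisomes and which is a PPARα target, had 716 and 291 reads (-1.07, interval -1.27 to -0.87).

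The peroxisomal thiolase has a pair of near copies in the mouse. Acaa1a had 4464 control and 2209 senescent reads (-0.79, interval -0.86 to -0.71). Acaa1b had only 115 and 127 (0.37), the highest ratio of the 40 genes. Its lower bound rounded to 0.00 and did not exclude 0. The transcripts matched at 96.6% of 1428 bases, so some Acaa1b reads may belong to Acaa1a, and 11.4% of its exon bases lie opposite Dlec1, which had 16 and 7 reads. By level, Acaa1b made up 5.48% of the pair in control and 11.5% in senescent cells.

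**Figure D2:**
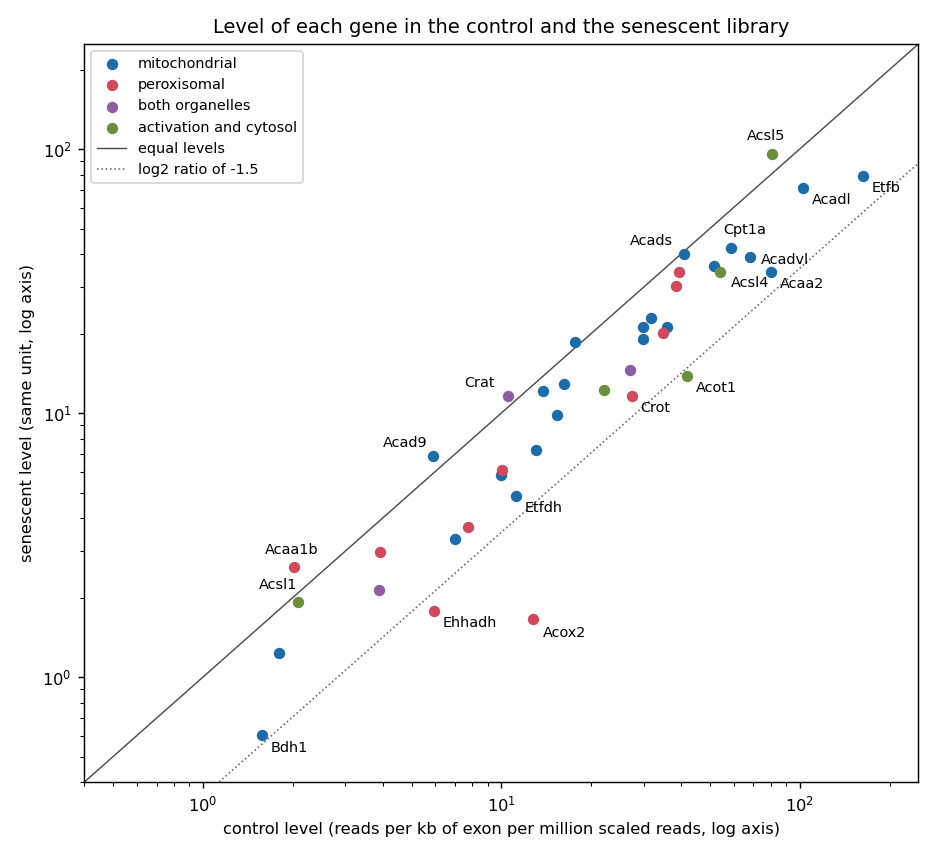
Level of each of the 40 genes, in RPKM on TMM-scaled counts, in the control library (x axis, log) against the senescent library (y axis, log), coloured by compartment. Points under the solid line of equal levels are lower in the senescent library; Acox2, Ehhadh and Acot1 lie under the dotted line of a log2 ratio of -1.5, and Acsl5, at 80.7 and 95.8, lies above equality.

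Medians of the mitochondrial and peroxisomal genes were close, and both were below that of all genes. The 22 mitochondrial genes had a median log2 ratio of -0.59 and ran from -1.37 to 0.22, with 20 below 0 and 5 past -1. For the 10 peroxisomal genes the median was -0.76 and the range -2.94 to 0.37, with 9 below 0 and 4 past -1. Over all 14383 genes, 7345 were below 0, 9.98% were lower past 1 and 5.60% were lower past 1.5. Both called genes of these groups were peroxisomal, too few to set the groups apart. The medians differed by -0.17 (peroxisomal minus mitochondrial), a difference smaller than the spread inside either group, and it was not tested because genes are not replicates of a condition. Summed levels were still closer. They went from 806 to 510 RPKM in mitochondria and from 183 to 115 in peroxisomes, to 0.633 and 0.631 of the control sum. Crat, Eci2 and Acad11 belong to both organelles and were left out of this contrast, and counting them as peroxisomal gave a difference of -0.20.

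**Figure D3:**
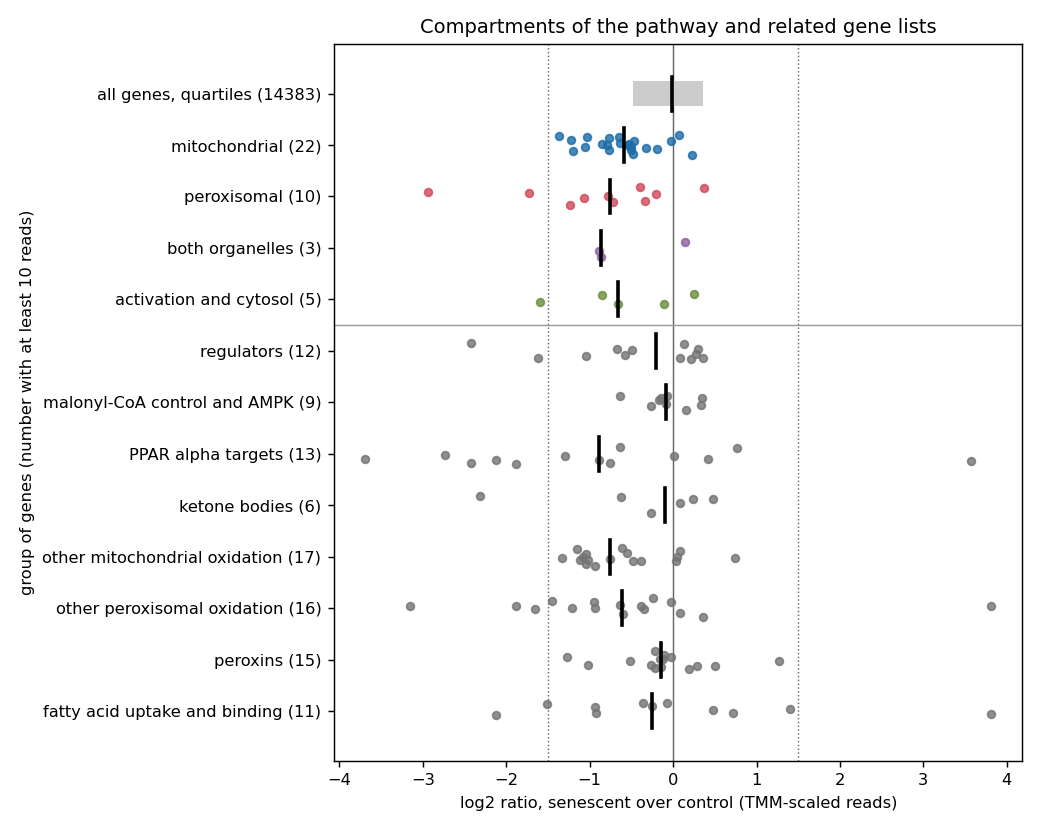
Log2 ratio of senescent over control for the 40 genes by compartment (upper rows, coloured) and for related gene lists (lower rows, grey), 1 point per gene with at least 10 reads. Black bars are medians and the grey box holds the middle quartiles of all 14383 genes; the mitochondrial and peroxisomal medians of -0.59 and -0.76 lie left of the all-gene median of -0.02, and the peroxisomal points spread more widely.

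Ketone body genes among the 40 were Acat1 and Bdh1. Acat1, the mitochondrial acetoacetyl-CoA thiolase at the first step of ketogenesis, had 3273 control and 1969 senescent reads (-0.50, interval -0.58 to -0.42). Bdh1, which interconverts acetoacetate and β-hydroxybutyrate, had only 178 and 58 reads, the fewest of the 40 in the senescent library. Its log2 ratio was -1.37 (-1.84 to -0.95), a 2.59-fold difference. Outside the 40 genes, the ketone carrier gene Slc16a7 fell from 45 to 7 reads (-2.31, interval -3.85 to -1.30). It was the 1 gene that fell of 6 further ketone body genes with at least 10 reads, of which 0 rose and whose median was -0.09. Over all genes, 5.60% were called lower and 2.71% higher.

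Ratios of partner genes within a library do not depend on how the libraries are scaled. Of the 12 pairs compared, chosen after their values were seen, the largest change was in Acox2 to Acox3, the oxidases of branched chains, at -2.55 on the log2 scale (-2.82 to -2.28). It was followed by Ehhadh to Hsd17b4, the bifunctional enzymes, at -1.53 (-1.82 to -1.25), and Crot to Crat, the carnitine transferases, at -1.38 (-1.51 to -1.25). The largest change in the other direction was in Acaa1b to Acaa1a, at 1.16 (0.79 to 1.53), which rests on the few reads of Acaa1b.

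**Figure D4:**
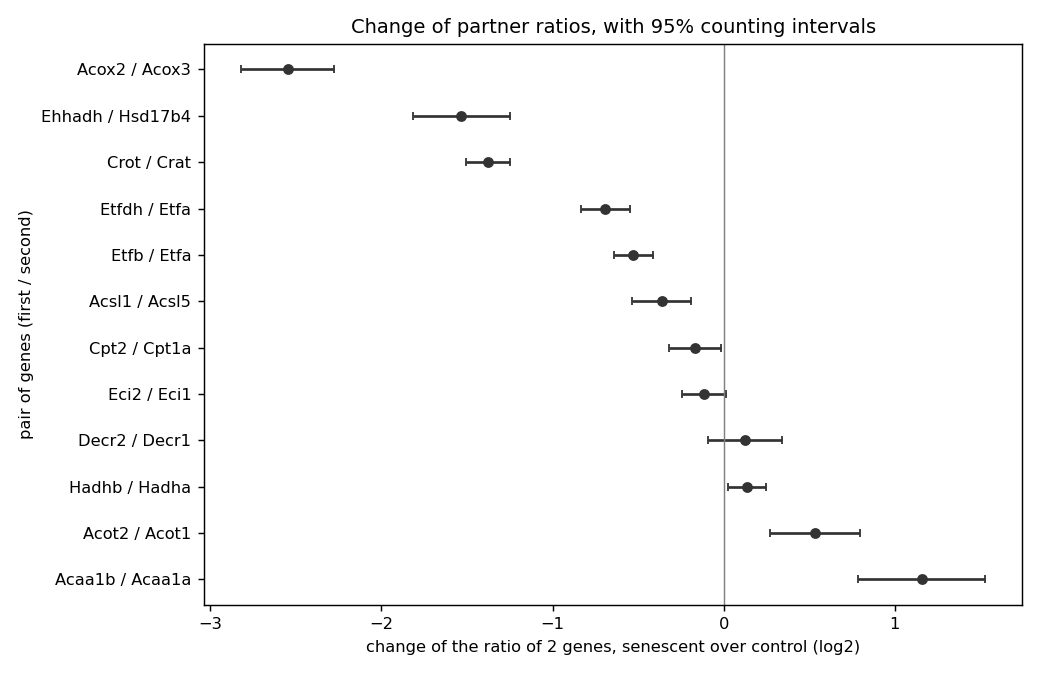
Change in the ratio of partner genes between the libraries (x axis, log2 of senescent over control), with 95% counting intervals, for 12 pairs (y axis, first gene over second). Points left of 0 mark a first gene that was lower relative to the second; Acox2 to Acox3 lies farthest left at -2.55, and the Hadhb to Hadha and Decr2 to Decr1 points lie near 0.

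Regulators of the pathway moved in part. Ppara, which encodes PPARα, had 1062 control and 438 senescent reads (-1.05, interval -1.21 to -0.89), past 1 but not 1.5. Ppargc1a, which encodes the coactivator PGC-1α, fell from 105 to 16 reads (-2.42, interval -3.34 to -1.72), and Klf15, a factor of the fasting response, fell from 1504 to 418 (-1.62, interval -1.78 to -1.46). The other 2 PPAR genes differed from Ppara, with 685 and 705 reads for Ppard (0.27) and 223 and 202 for Pparg (0.09, interval -0.20 to 0.37). Rxra, the partner of all 3 receptors, had 1916 and 1097 reads (-0.57). Esrra, another partner of PGC-1α, had 5242 and 5163 (0.21), and Ppargc1b had 59 and 62, with an interval of -0.24 to 0.84. In all, 2 of the 12 regulators fell and 0 rose, beside 5.60% of all genes lower and 2.71% higher. Of the 9 genes for malonyl-CoA control and AMPK, 0 passed the threshold in either direction and their median was -0.09.

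PPARα targets outside the 40 genes went in both directions. Of the 13 with at least 10 reads, 5 fell and 1 rose, beside 5.60% of all genes lower and 2.71% higher. Their median was -0.89. The summed reads of the list went the other way, from 573 to 804 CPM, and most of them came from the lipid droplet gene Plin2, with 10815 and 15705 reads (0.77, interval 0.73 to 0.80). Angptl4, an inhibitor of lipoprotein lipase, had 2422 and 2763 (0.42, interval 0.34 to 0.50). Both were named after their values were seen. Pdk4, the kinase that turns off pyruvate dehydrogenase, fell from 217 to 27 reads (-2.74, interval -3.41 to -2.20). Plin5, another lipid droplet gene, fell from 28 reads to 1 (interval -9.93 to -1.98). Acot4, a peroxisomal thioesterase, fell from 133 to 30 (-1.89), the fatty acid binding gene Fabp1 from 24 to 4 (-2.12, interval -4.34 to -0.81) and Acot3 from 11 to 1 (interval -8.66 to -0.45). Transcripts of Acot3 and Acot4 matched that of Acot1 at 85.1% and 84% of aligned bases, so some of their few reads may belong to Acot1. Cyp4a14, a fatty acid hydroxylase, rose from 0 to 10 reads, with an interval that starts at 1.39 and has no upper end. Slc25a20, the carrier that exchanges acylcarnitines across the inner membrane, had 1266 and 639 reads (-0.76, interval -0.90 to -0.62).

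The further peroxisomal genes were mostly lower. Of 16 with at least 10 reads, 3 fell and 1 rose, beside 5.60% of all genes lower and 2.71% higher. Their median was -0.62. Phyh, which starts the α-oxidation of phytanic acid, fell from 1127 to 305 reads (-1.65, interval -1.84 to -1.47), and Baat, which conjugates bile acids, fell from 19 reads to 1 (interval -9.40 to -1.37). The remaining gene that fell was Acot4, with the limit on its reads given above. Slc27a2, a synthetase of very long chains, rose from 0 to 12 reads, with an interval that starts at 1.70. Cat, the catalase that removes the hydrogen peroxide made there, had 13268 and 7485 reads (-0.60, interval -0.64 to -0.56), and the fatty acid importer Abcd3 had 3321 and 2402 (-0.24). The peroxins, which build the organelle and import its enzymes, were closer to 0, with a median of -0.15 over 15 genes and 0 past the threshold. Of these, 2 were past -1 and 1 past 1, beside 9.98% and 5.09% of all genes. Pex5, the receptor of most imported enzymes, had 1978 and 1451 reads (-0.22, interval -0.32 to -0.12). Pex7, the receptor for the other import signal, carried by the thiolase and by the product of Phyh, had 932 and 390 (-1.03, interval -1.20 to -0.86). Among the 4 peroxins above 0, Pex3, which acts early in the assembly of the membrane, had 390 and 802 reads (1.27, interval 1.09 to 1.45), and Pex14, at the import pore, had 741 and 895 (0.50, interval 0.36 to 0.64). This pair was also named after the values were seen.

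Other mitochondrial genes next to the pathway had a median of -0.76 over the 17 with at least 10 reads. None of them passed 1.5, 7 were past -1 and 0 past 1, beside 9.98% and 5.09% of all genes past -1 and 1. Uptake and binding genes had a median of -0.25 over 11 genes, of which 2 fell and 1 rose, with 2 past -1 and 2 past 1. Over all genes, 5.60% fell and 2.71% rose. Fabp1 and Fabp4, the latter with 22 and 6 reads (-1.51, interval -3.24 to -0.30), were the genes that fell, and Slc27a2 the one that rose, all with few reads. Acsbg1, an acyl-CoA synthetase named after its value was seen, was far better counted, with 1538 and 3454 reads (1.40, interval 1.31 to 1.48). Cd36, the fatty acid translocase, had only 10 and 7 reads, so that no difference was detectable at this depth.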

How the data were processed

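The authors pooled RNA of 3 samples per condition, selected poly(A) RNA, made random-primed cDNA and deposited raw counts of reads per Ensembl gene. The submitters' processing notes name CASAVA, STAR, DESeq2, edgeR and mm10, and the counting tool, annotation and use of strand are not given in the sources used here. Columns were assigned by the initials of the sample titles, Old and Young. Counts were scaled with TMM in edgeR 4.0.16 (R 4.3.3), whose factors were 1.04 (control) and 0.964 (senescent). Log2 ratios had a prior count of 1, and intervals were computed with scipy 1.17.1 at 95%. With 1 library per condition, the planned quasi-likelihood test and DESeq2 1.42.0 test had no residual degrees of freedom. For genes with 3 or fewer reads in a library the interval is given in place of a fold. Levels used merged exon lengths of GENCODE M21. These count every annotated exon, so ratios of levels between genes depend on the annotation. Of 35275 genes, 34490 (97.8%) had a symbol. Shared sequence was found with blastn 2.17.0, exon overlaps with bedtools 2.31.1.

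The 40 genes and the lists were chosen with earlier results of these data known, and the partner pairs after their values were seen. All 40 genes could be named, as could list genes past 1.5 and regulators or defining steps fixed by name, and markers. Alternatives were scaling by total count, DESeq2 size factors or upper quartiles, minimums of 1 and 100 reads, smaller and larger prior counts, thresholds of 1 and 2, assumed coefficients of variation of 0.1 and 0.4, and other groupings of peroxisomal genes. The procedure was tested on simulated data with planted changes larger than that of any of the 40 genes. It therefore does not show how well modest changes are recovered. Of the listed genes, Nudt8 was not matched, and Hsd17b8 and Mmut were matched by the older symbols H2-Ke6 and Mut. Some listed genes are not reported here and were left out of the list counts and medians.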

Additional observations from a re-analysis of the deposited data

How the results depend on the processing

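Of 72 comparisons of counts and medians with their values under an alternative, 63 stayed within 1.5 times the count or 0.09 of the median. Of the 72, 0 changed sign, although a count cannot do so. Comparisons at other minimums of reads could not differ, because all 40 genes passed each minimum. Scaling shifts all ratios nearly alike, so it could hardly move the difference of medians between compartments. The 63 therefore include comparisons that could not fail and do not measure robustness. Scaling by total count lowered every ratio by 0.11, so that the medians became -0.76 for all 40 genes, -0.69 for the mitochondrial and -0.86 for the peroxisomal ones, and 2 intervals lay above 0 in place of 4, with Echs1 and Crat lost. It also turned the sign of Echs1, the only sign of the 40 to change under any scaling or prior count. A threshold of 1 gave 10 lower genes and one of 2 gave 1, in place of 3. With an assumed coefficient of variation of 0.1 there were 0 intervals above 0, and with 0.4 there were 2 below 0 and 0 above. No paired analysis was possible because each condition had 1 library, and no library could be left out. Depth limited Acaa1b and the comparisons within the Decr and Eci pairs among the 40 genes, and listed genes such as Cd36, Fabp1 and Baat.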
